A study of Homo sapiens with 8 samples.

Results

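The cyclin-dependent kinase inhibitor genes CDKN1A, CDKN1B, CDKN1C, CDKN2A, CDKN2B, CDKN2C, and CDKN2D were followed across 8 stable HEK293T cell lines. They were found as the non-control probes whose RefSeq transcript belongs to one of these symbols, which gave 9 probes for the 7 genes among 34127 probes and 19483 named genes. CDKN1B and CDKN2A had 2 probes each, and the probe with the higher mean signal is given first. The parental HEK293T line was derived from human embryonic kidney and carries adenoviral and SV40 transforming proteins. Each cell line was a blasticidin S-resistant colony that had been picked after transfection, so it is 1 clone. Empty vector #1 and #2 carried pcDNA6/myc-His alone. TET1-CDwt #2 and #5 expressed the catalytic domain of TET1, a dioxygenase that oxidizes 5-methylcytosine. In MBD-TET1-CDwt #3 and #10 the methyl-CpG-binding domain (MBD) of MBD2 was joined to it, and MBD-TET1-CDmut #9 and #10 carried this fusion with a catalytically inactive mutant. The expression of all constructs was constitutive, and 1 array was hybridized per clone.

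Cyclin-dependent kinases (CDKs) drive the cell cycle when they are bound by cyclins, and 2 families of small proteins hold them back. The CIP/KIP proteins p21 (CDKN1A), p27 (CDKN1B), and p57 (CDKN1C) bind cyclin-CDK complexes. The INK4 proteins p16 (CDKN2A), p15 (CDKN2B), p18 (CDKN2C), and p19 (CDKN2D) bind CDK4 and CDK6, which otherwise phosphorylate RB and release E2F. CDKN2A also encodes ARF from an upstream first exon, and ARF restrains the ubiquitin ligase MDM2. CDKN2A and CDKN2B are known for promoter methylation in tumors, and CDKN1C lies in an imprinted domain.

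The constructs act on methylated CpG, so the CpG content of the promoters was read from RefSeq (GRCh38.p14), where windows from 250 bases before to 50 after a start were given for 6 of the 7 genes, with 9 windows in all. CDKN1C had none. The 250 bases before the start are shown for CDKN2A, which was bright on every array, and for CDKN2B and CDKN1A, which were dim, with CG in capitals. The CDKN2A windows lie on the minus strand at chr9:21974858-21975107 and chr9:21995325-21995574, CDKN2B on the minus strand at chr9:22009306-22009555, and CDKN1A on the plus strand at chr6:36678464-36678713.
CDKN2A, downstream start: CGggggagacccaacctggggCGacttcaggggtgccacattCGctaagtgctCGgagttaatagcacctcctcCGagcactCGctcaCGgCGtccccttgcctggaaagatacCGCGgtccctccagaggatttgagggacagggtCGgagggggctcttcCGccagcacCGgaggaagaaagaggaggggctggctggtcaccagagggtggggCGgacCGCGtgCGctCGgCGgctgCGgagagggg
CDKN2A, upstream start: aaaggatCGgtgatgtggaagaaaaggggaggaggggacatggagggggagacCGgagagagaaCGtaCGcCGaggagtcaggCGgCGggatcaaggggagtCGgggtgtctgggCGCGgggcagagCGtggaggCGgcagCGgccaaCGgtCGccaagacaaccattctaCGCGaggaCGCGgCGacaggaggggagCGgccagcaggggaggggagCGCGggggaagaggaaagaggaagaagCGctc
CDKN2B: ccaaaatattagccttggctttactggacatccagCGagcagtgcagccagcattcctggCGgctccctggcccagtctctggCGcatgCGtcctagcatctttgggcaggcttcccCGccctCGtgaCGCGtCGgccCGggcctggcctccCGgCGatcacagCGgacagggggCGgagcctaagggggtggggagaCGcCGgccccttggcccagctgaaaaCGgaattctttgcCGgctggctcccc
CDKN1A: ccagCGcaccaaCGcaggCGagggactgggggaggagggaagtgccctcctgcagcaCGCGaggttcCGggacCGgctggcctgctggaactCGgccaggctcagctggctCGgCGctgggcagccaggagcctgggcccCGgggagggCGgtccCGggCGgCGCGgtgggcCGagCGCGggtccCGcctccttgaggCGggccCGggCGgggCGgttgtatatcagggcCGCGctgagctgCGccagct
These stretches hold 20, 24, 18, and 27 CG in the order shown. Over the 300-base windows, CDKN2A had 26 and 28 CG, CDKN2B had 25, CDKN1A and CDKN1B had 29 each, and CDKN2D had 36, against a median of 14 over 35116 windows. At least 25 CG were found in 32.0% of all windows, so dense CpG was common. The 3 windows of CDKN2C had 8, 37, and 11 CG. The GC box (GGGCGG, either strand) was present in the CDKN1A, CDKN1B, CDKN2B, and CDKN2D windows, in 1 of the 2 CDKN2A windows and in 2 of the 3 CDKN2C windows, and in 45.0% of all windows, whereas TATAAA (either strand) was found in 0 of the 9 and in 11.5% of all windows. The methylation of these promoters was not analysed here.

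Values are log2 intensities minus the 75th percentile of the array, so 0 is the level of a probe at that percentile, and a probe was called well above background by the flag of the scanner software. Levels of different probes are not compared with each other. The 75th percentile lay at an intensity of 328 to 527, and on each array 63.2% to 68.2% of the probes were well above background. Slide 1 held empty vector and TET1-CDwt, and slide 2 held the 2 MBD fusions, so slide and construct cannot be told apart except in the comparisons within a slide, TET1-CDwt with empty vector and MBD-TET1-CDwt with MBD-TET1-CDmut. The 2 arrays per group limit the precision, and p-values measure the spread between sister clones. Where groups are said not to overlap, this is a description of 2 clones against 2. The share of all probes without overlap was computed only together with a 2-fold difference. The 8 HEK293T markers were well above background on all 8 arrays. Of 12 markers of other cells, 6 were so on all 8 arrays and ALB, CD3E, COL3A1, KLK3, and PECAM1 on 0. The summed scaled signal of the other-cell markers was 0.887 to 1.70 in the clones with MBD-TET1-CDwt and 0.958 to 1.64 in the others, and that of the HEK293T markers was 136 to 141 and 126 to 218. limma called 0 of these markers, among which NEFM differed by -1.72 between MBD-TET1-CDwt and TET1-CDwt (adjusted p = 0.985). Their part in the results was not tested.

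The inhibitor genes CDKN1B, CDKN1C, CDKN2A, CDKN2C, and CDKN2D, were well above background on all 8 arrays with every probe. CDKN1A was so on 5 arrays and CDKN2B on 1. A limma fit with Benjamini-Hochberg adjustment was made over 22530 probes, each detected in both clones of 1 or more constructs. It took in 8 of the 9 inhibitor probes and left out CDKN2B, and CDKN1A entered it through empty vector and TET1-CDwt only.

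**Figure D1:**
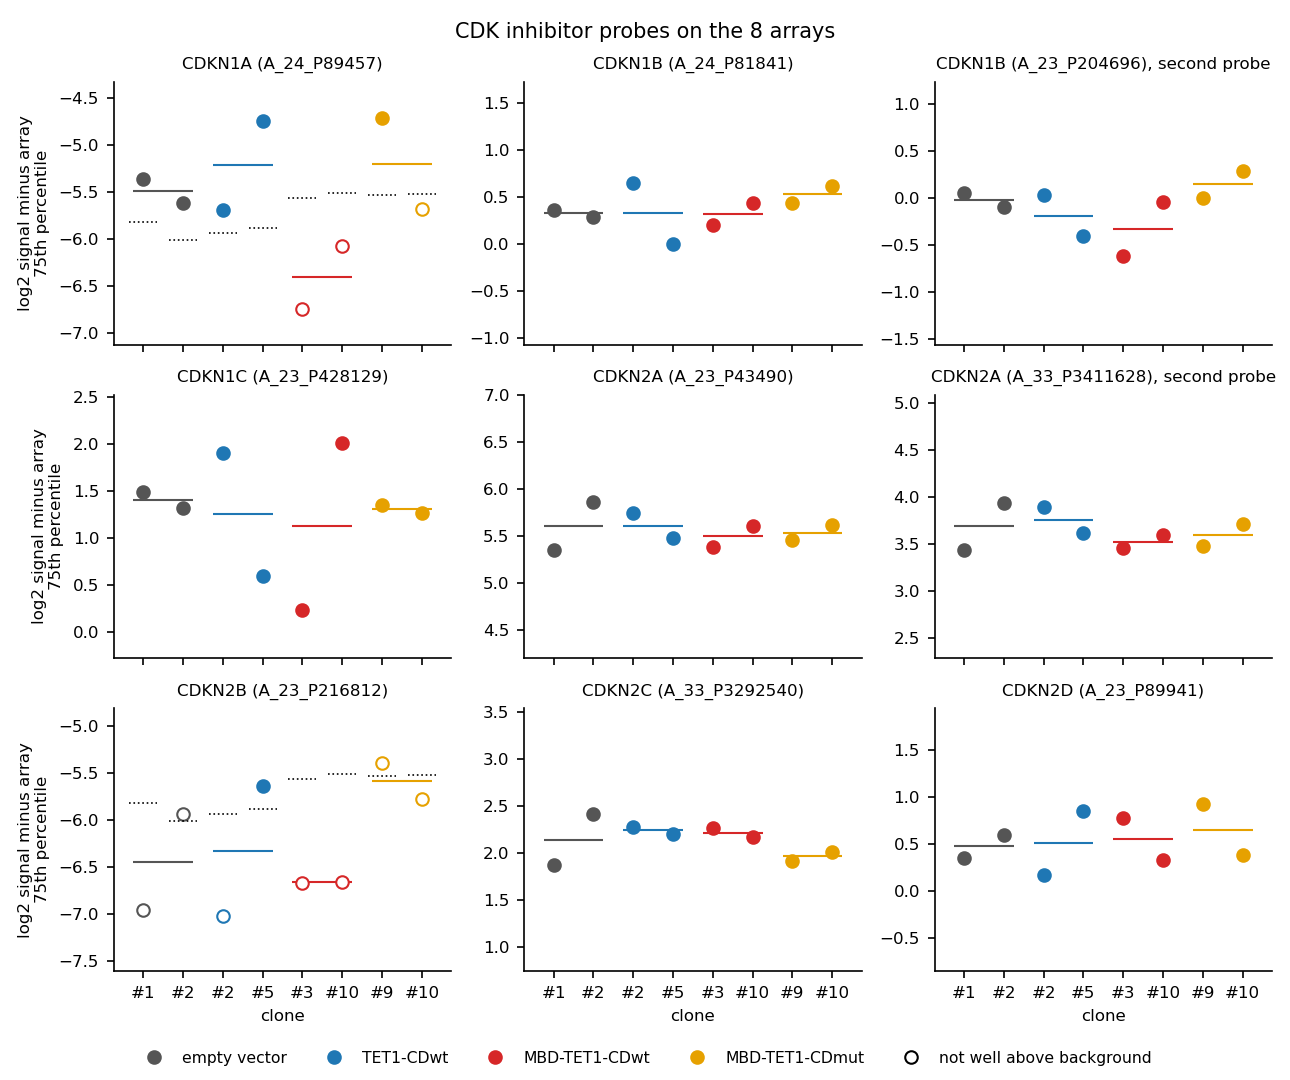
Signal of the 9 CDK inhibitor probes on each of the 8 arrays, as log2 intensity minus the 75th percentile of the array (y axis, of the same height in every panel) by clone (x axis). Horizontal lines are group means of 2 clones, open circles are values not well above background, and dotted ticks mark the lowest signal among all probes well above background on that array. CDKN1A is open in both MBD-TET1-CDwt clones, and CDKN1C splits between the sister clones of TET1-CDwt and of MBD-TET1-CDwt.

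Among the CIP/KIP genes, CDKN1A (probe A_24_P89457, NM_078467) had its 2 lowest signals in the MBD-TET1-CDwt clones. It read -5.36 and -5.62 in empty vector #1 and #2, -5.69 and -4.75 in TET1-CDwt #2 and #5, -6.74 and -6.07 in MBD-TET1-CDwt #3 and #10, and -4.71 and -5.69 in MBD-TET1-CDmut #9 and #10. The MBD-TET1-CDwt clones did not overlap with any other group, but neither of them was well above background, nor was MBD-TET1-CDmut #10. All of these values lay near or below the detection limit. The lowest signal well above background was -6.01 to -5.82 on the arrays of slide 1 and -5.56 to -5.51 on those of slide 2. The scaled detection limit thus differed between the arrays of the 2 slides, which also differ in construct. At a scaled value of -5.69, CDKN1A was well above background in TET1-CDwt #2 but not in MBD-TET1-CDmut #10. The unscaled intensities were 10.2 and 7.53, so equal scaled values did not stand for equal intensities. The measured signal of MBD-TET1-CDwt differed by -0.92 ± 0.44 (SE) from empty vector (limma, adjusted p = 0.797, 95% interval -1.96 to 0.13) and by -1.19 ± 0.44 from TET1-CDwt (adjusted p = 0.985). Within slide 2 it differed by -1.21 ± 0.44 from MBD-TET1-CDmut (adjusted p = 0.681, 95% interval -2.25 to -0.16). None of these passed the test. MBD-TET1-CDwt was also placed at the higher of its own signal and the lowest signal well above background. CDKN1A was then 1.03-fold higher in empty vector and 1.25-fold higher in TET1-CDwt. These values are not strict bounds, since a probe above that lowest signal can still miss the flag. CDKN2B did so in MBD-TET1-CDmut #9, at -5.39 where the lowest flagged signal was -5.53. No such value is given against MBD-TET1-CDmut, since only 1 of its 2 arrays measured CDKN1A. With another background correction (normexp), the direction turned to 0.13 against empty vector and 0.28 against TET1-CDwt, and the difference from MBD-TET1-CDmut shrank to -0.02. Over the 9137 probes that no array measured above background, the median signal was also shifted and was higher in MBD-TET1-CDwt by 0.37 against empty vector, by 0.43 against TET1-CDwt, and by 0.03 against MBD-TET1-CDmut.

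CDKN1A in the other constructs stayed within the spread of the clones. TET1-CDwt differed from empty vector by 0.27 and MBD-TET1-CDmut by 0.29, each with an SE of 0.44 and an adjusted p of 1.00 by limma. Both signs depended on 1 clone, since the difference was -0.20 without TET1-CDwt #5 and -0.20 without MBD-TET1-CDmut #9. The within-slide difference of MBD-TET1-CDwt minus MBD-TET1-CDmut, less that of TET1-CDwt minus empty vector, was -1.48 ± 0.62 for CDKN1A (limma, adjusted p = 1.00) and turned to 0.14 with normexp. It was called for 0 of the 8 inhibitor probes and for 0.0444% of all probes, and this contrast was chosen after the data had been seen.

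CDKN1B, which encodes p27, was detected in every clone, within a range of 0.65 on the log2 scale. The probe A_24_P81841 (NM_004064, printed in 10 spots) read 0.36 and 0.29 in empty vector, 0.65 and 0.00 in TET1-CDwt, 0.20 and 0.44 in MBD-TET1-CDwt, and 0.44 and 0.62 in MBD-TET1-CDmut. The values of MBD-TET1-CDmut were at or above those of MBD-TET1-CDwt, and within slide 2 the difference was -0.21 ± 0.25 (limma, adjusted p = 0.900, 95% interval -0.79 to 0.38). The other probe, A_23_P204696, ranged from -0.61 in MBD-TET1-CDwt #3 to 0.29 in MBD-TET1-CDmut #10 and differed by -0.47 ± 0.26 in the same comparison (limma, adjusted p = 0.786), again without overlap. The 2 probes moved alike over the 8 arrays (r = 0.80).

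CDKN1C, which encodes p57, was detected in every clone and lay farther apart between the sister clones of TET1-CDwt and of MBD-TET1-CDwt than between the means of the constructs. The probe A_23_P428129 (NM_000076) read 1.50 and 1.32 in empty vector, 1.91 and 0.60 in TET1-CDwt #2 and #5, 0.23 and 2.02 in MBD-TET1-CDwt #3 and #10, and 1.35 and 1.27 in MBD-TET1-CDmut. The lowest and the highest value of the 8 arrays were thus both in MBD-TET1-CDwt, whereas the clones of empty vector and of MBD-TET1-CDmut lay close together. MBD-TET1-CDwt #10 was above #3 by 1.78 on the log2 scale, or 3.44-fold, a distance reached by 2.48% of the tested probes in this pair of clones. TET1-CDwt #2 was above #5 by 2.49-fold, a distance reached by 2.73% of the tested probes. The group means differed by -0.28 between MBD-TET1-CDwt and empty vector (limma, adjusted p = 0.961, 95% interval -1.74 to 1.18) and by -0.18 between MBD-TET1-CDwt and MBD-TET1-CDmut (adjusted p = 0.967). These differences became 0.61 and 0.71 without MBD-TET1-CDwt #3.

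CDKN1C lies at 11p15.5 beside other imprinted genes, and 13 of its 17 listed neighbors were tested. IGF2, a growth factor expressed from the paternal allele, read 2.43 and 2.65 in empty vector, 3.22 and 2.42 in TET1-CDwt #2 and #5, 1.01 and 2.88 in MBD-TET1-CDwt #3 and #10, and 2.60 and 2.42 in MBD-TET1-CDmut. It was thus also lowest in MBD-TET1-CDwt #3 and highest in TET1-CDwt #2, and its r with CDKN1C over the 8 arrays was 0.86. A second IGF2 probe, A_23_P421379, was well above background on 6 arrays, had an r of 0.59, and was lowest in MBD-TET1-CDmut #10 at -5.45, next to MBD-TET1-CDwt #3 at -5.41. H19, a noncoding RNA of the maternal allele, was highest in MBD-TET1-CDwt #10 at -1.01 and lowest, near the detection limit, in empty vector #2 at -5.83, with an r of 0.65. The other neighbors had an r between -0.67 for TSSC4 and 0.79 for ASCL2, so the likeness was not shared along the domain. These correlations are descriptions over the same 8 arrays, in which the 2 clones of MBD-TET1-CDwt span the whole range of CDKN1C. KCNQ1OT1, the noncoding RNA of the paternal allele that lies antisense to KCNQ1, had group means 2-fold or more apart in 3 comparisons, by -1.32 for TET1-CDwt against empty vector and, for MBD-TET1-CDwt, by 1.07 against MBD-TET1-CDmut and 1.39 against TET1-CDwt. None was called by limma (adjusted p = 1.00, 0.798, and 0.985), and its 2 empty vector clones lay at -2.92 and -0.88. Under normexp, quantile normalization, or median scaling, 0 of the 120 tested partner genes was 2-fold apart without overlap in TET1-CDwt against empty vector.

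Among the INK4 genes, CDKN2A was bright in every clone. The probe A_23_P43490 (NM_058197) read 5.35 and 5.86 in empty vector, 5.74 and 5.48 in TET1-CDwt, 5.39 and 5.61 in MBD-TET1-CDwt, and 5.46 and 5.62 in MBD-TET1-CDmut. With this probe all groups overlapped, and the 2 most distant arrays were both empty vector. MBD-TET1-CDwt differed from MBD-TET1-CDmut by -0.04 (limma, adjusted p = 0.980, 95% interval -0.59 to 0.51) and from empty vector by -0.11 (adjusted p = 0.961). The other probe, A_33_P3411628, is annotated to the p16 transcript NM_000077 and ranged from 3.44 to 3.94, with an r of 0.96 between the probes. Its MBD-TET1-CDwt clones lay below its TET1-CDwt clones without overlap, by -0.23 ± 0.23 (limma, adjusted p = 0.985). The files do not place the probes in exons, so p16 and ARF transcripts were not separated.

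CDKN2B, the neighbor of CDKN2A, was near or below the detection limit in every clone. The probe A_23_P216812 (NM_004936) read -6.95 and -5.94 in empty vector, -7.03 and -5.64 in TET1-CDwt #2 and #5, -6.67 and -6.66 in MBD-TET1-CDwt, and -5.39 and -5.78 in MBD-TET1-CDmut. It was well above background in TET1-CDwt #5 only, and neither MBD-TET1-CDwt clone was, so no construct gave a level that could be compared. The start of CDKN2B lies 13981 bases from the upstream start of CDKN2A, whose probes were well above background on all 8 arrays. In the same 9p21 region, MTAP, a methionine salvage enzyme, KLHL9, a ubiquitin ligase adaptor, and ELAVL2, an RNA-binding protein, were well above background on all 8 arrays. CDKN2B-AS1, the antisense RNA of the locus, was so on 0 arrays, like the interferon gene IFNE, and DMRTA1 on 1. MTAP ranged from 0.74 to 1.06 and KLHL9 from 1.77 to 2.49, and 0 of the 3 tested neighbors was called in any comparison.

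CDKN2C and CDKN2D, which encode p18 and p19, were detected in every clone. CDKN2C (A_33_P3292540, NM_078626) read 1.87 and 2.41 in empty vector, 2.27 and 2.20 in TET1-CDwt, 2.26 and 2.17 in MBD-TET1-CDwt, and 1.91 and 2.01 in MBD-TET1-CDmut. Both MBD-TET1-CDwt clones were above both MBD-TET1-CDmut clones, with a difference of 0.25 ± 0.22 (limma, adjusted p = 0.873, 95% interval -0.26 to 0.76). CDKN2D (A_23_P89941, NM_001800) read 0.35 and 0.60 in empty vector, 0.16 and 0.85 in TET1-CDwt, 0.78 and 0.32 in MBD-TET1-CDwt, and 0.92 and 0.38 in MBD-TET1-CDmut. Its groups overlapped in every comparison.

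Over the 5 comparisons, limma called 0 of the 8 inhibitor probes at an adjusted p under 0.05. The background was low: 0.115% of all tested probes were called for MBD-TET1-CDwt against empty vector, and 0% for each of TET1-CDwt and MBD-TET1-CDmut against empty vector. MBD-TET1-CDwt had 0.102% called against MBD-TET1-CDmut and 0.115% against TET1-CDwt. At an unadjusted p under 0.05, CDKN1A alone passed, in MBD-TET1-CDwt against MBD-TET1-CDmut and against TET1-CDwt, with 6.84% and 4.74% of all probes. Both p-values rest on MBD-TET1-CDwt values that were not well above background, in a gene that entered the fit through other groups. With normexp the 2 differences were -0.02 and 0.28. For the other 3 comparisons, 0 of the 8 inhibitor probes passed, with a background of 6.6% for MBD-TET1-CDwt, 2.5% for TET1-CDwt, and 2.68% for MBD-TET1-CDmut against empty vector. A mean difference of 2-fold or more in groups that did not overlap, with the higher group well above background on both arrays, was met by CDKN1A in MBD-TET1-CDwt against TET1-CDwt, with a background of 1.88%. Neither MBD-TET1-CDwt value was well above background, so that size is not measured. The 1.25-fold given above is not a strict bound either. The rule was met by 0 inhibitor genes elsewhere, with backgrounds of 2.51% for MBD-TET1-CDwt, 0.954% for TET1-CDwt, and 1.05% for MBD-TET1-CDmut against empty vector, and 2.6% for MBD-TET1-CDwt against MBD-TET1-CDmut. An F test over the 4 groups called 0 of the 8 probes and 0.0843% of all probes.

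The intervals limit how large a change could have been missed. For the first-named probes of CDKN1B, CDKN2A, CDKN2C, and CDKN2D, the 20 differences lay between -0.21 and 0.25, and the widest 95% limits were 0.556-fold and 1.90-fold. The second probe of CDKN1B reached lower, with a 95% limit of -1.09 on the log2 scale for MBD-TET1-CDwt against MBD-TET1-CDmut. CDKN1C was less well bounded, with limits of 0.299-fold and 2.58-fold. The limits of CDKN1A were 0.210-fold and 2.52-fold, but they rest in part on values that were not well above background. The median difference of the 6 tested genes was -0.06 for MBD-TET1-CDwt against empty vector and -0.14 against MBD-TET1-CDmut, beside -0.02 and 0.01 over all tested probes.

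**Figure D2:**
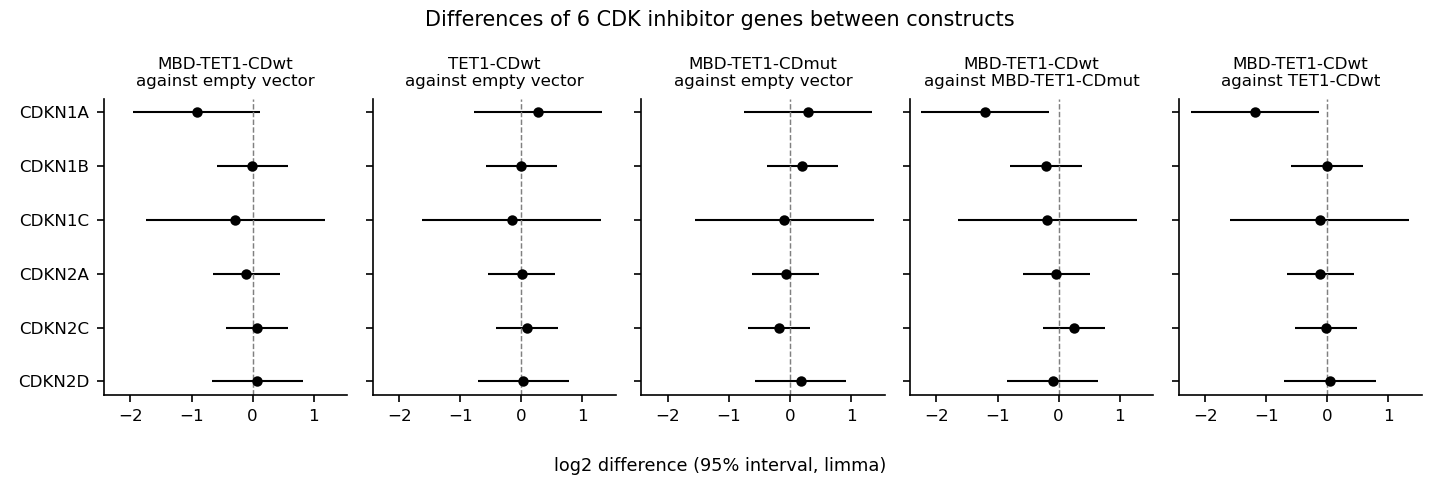
Log2 differences (x axis) of the 6 tested CDK inhibitor genes (y axis, 1 probe each) in the 5 comparisons, as points with the 95% intervals of limma. The intervals of CDKN1A exclude 0 before adjustment in the 2 right-hand panels (limma, unadjusted p = 0.0291 and 0.0310), and those of CDKN1C are the widest. CDKN1A was not well above background in either MBD-TET1-CDwt clone, so its differences in these panels are not between measured levels.

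The distance between sister clones gave the scale against which the constructs were read. The median distance over all tested probes was 0.22 for the empty vector pair, 0.26 for the TET1-CDwt pair, 0.37 for the MBD-TET1-CDwt pair, and 0.17 for the MBD-TET1-CDmut pair. CDKN1A lay 0.94 apart in TET1-CDwt and 0.98 apart in MBD-TET1-CDmut, reached by 6.72% and 2.0% of the tested probes, and MBD-TET1-CDmut #10 was not well above background. With normexp the distances were 0.40 and 0.27. CDKN2B lay 1.38 apart in TET1-CDwt and 1.01 apart in empty vector, mostly below background. CDKN2C was 0.54 apart in empty vector and less than 0.10 apart in each of the other constructs.

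**Figure D3:**
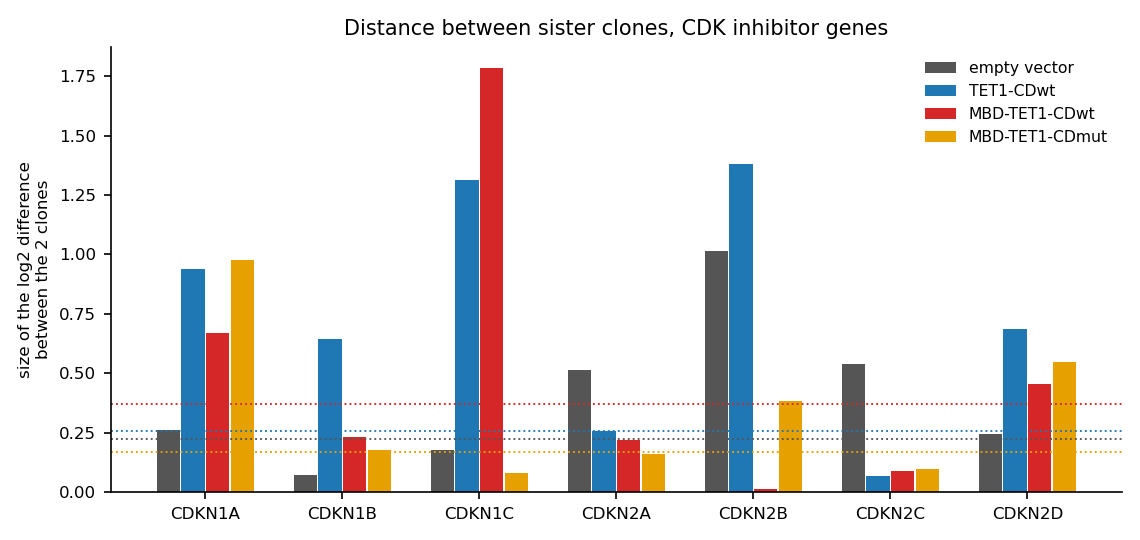
Size of the log2 difference between the 2 clones of each construct (y axis, from 0) for the 7 CDK inhibitor genes (x axis, 1 probe each). Dotted lines give the median over the 22530 tested probes for the construct of the same color, and CDKN1C stands highest in MBD-TET1-CDwt (1.78) and, among the 6 tested genes, in TET1-CDwt (1.31).

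The partners of the inhibitors were followed in 9 gene lists, and 120 of the 131 listed genes were tested. limma called 0 of them in any comparison. The kinases and cyclins showed a median difference of 0.01 for MBD-TET1-CDwt against empty vector and -0.09 against MBD-TET1-CDmut, over 14 tested genes. CDK4, the main target of the INK4 proteins, ranged from 4.48 to 4.87 over the 8 arrays, and CDK6 from 1.72 to 2.52. CCND1, a D-type cyclin that activates them, read -1.22 and -1.49 in empty vector, -1.28 and -1.40 in TET1-CDwt, -1.90 and -2.30 in MBD-TET1-CDwt, and -1.26 and -1.30 in MBD-TET1-CDmut. Both MBD-TET1-CDwt clones were below all other clones. The difference from MBD-TET1-CDmut was -0.82 ± 0.20 (limma, unadjusted p = 0.00515, adjusted p = 0.508), so it did not pass. The other D-type cyclins overlapped in this comparison. CCND2 read 1.45 and 0.88 in MBD-TET1-CDwt and 1.19 and 1.55 in MBD-TET1-CDmut, and CCND3 read 0.03 and -0.58, and -0.29 and -0.38. CCND1 was the only one of the 14 genes with an unadjusted p under 0.05 in any comparison, and it had one in each comparison of MBD-TET1-CDwt, a share of the list near that of all probes (4.74% to 6.84%).

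Among the RB and E2F genes, which lie downstream of the CDKs, 0 of 13 tested genes had an unadjusted p under 0.05 in any comparison, and RB1 ranged from 1.40 to 1.99. In the list of damage response genes, 24 of 25 genes were tested. BBC3, which encodes the proapoptotic protein PUMA, read 3.07 and 2.88 in empty vector, 2.76 and 2.62 in TET1-CDwt, 1.06 and 2.26 in clones #3 and #10 of MBD-TET1-CDwt, and 2.54 and 2.88 in MBD-TET1-CDmut. Both MBD-TET1-CDwt clones were below all other clones, with a difference of -1.31 ± 0.37 from empty vector (limma, adjusted p = 0.579) and -1.04 from MBD-TET1-CDmut (adjusted p = 0.676). With MBD-TET1-CDwt represented by #3 alone, the difference from empty vector was called at -1.91 (adjusted p = 0.0457), so the call depended on 1 clone. MDM2 read -1.72 and -1.47 in empty vector and between -1.32 and -0.87 in the other 6 clones, and its largest difference was 0.60 for MBD-TET1-CDwt against empty vector (adjusted p = 0.691).

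The ubiquitin ligase list holds the machinery that degrades p27 and p21. In MBD-TET1-CDwt, 11 of its 12 genes had a positive difference against TET1-CDwt and 9 of 12 against empty vector. Within slide 2, 10 of 12 were positive against MBD-TET1-CDmut. The medians were 0.12, 0.16, and 0.14, beside 0.02, -0.02, and 0.01 over all tested probes, and 0 genes were called. The share of all probes with a positive difference was not computed, and the counts are not independent, since they share the same MBD-TET1-CDwt arrays. SKP2, the F-box protein that recognizes p27, was 0.93 in MBD-TET1-CDwt #3 and -0.27 in #10, the highest and the lowest of the 8 arrays. The Polycomb proteins, which silence the CDKN2A locus in many cells, had medians of 0.00 against empty vector and -0.01 against MBD-TET1-CDmut over 17 genes, and EZH2 ranged from 2.01 to 2.50. In the list of TGF-beta, SMAD, and FOXO genes, ID1, a transcriptional inhibitor, read 1.85 and 2.04 in MBD-TET1-CDwt and 0.27 and 0.97 in MBD-TET1-CDmut, a difference of 1.33 ± 0.33 (limma, adjusted p = 0.508). It read 1.60 and 1.10 in empty vector and 1.88 and 1.25 in TET1-CDwt, so the MBD-TET1-CDmut clones were the 2 lowest. A last list held CDKN3, CDK2AP1, CDK2AP2, CDKN2AIP, KNTC1, CABLES1, INKA1, and INKA2, not all of which inhibit CDKs. Of these 8 genes, 0 was called and all were well above background on all 8 arrays. CDK2AP2, a CDK2-associated protein, was 3.59 in MBD-TET1-CDwt #3 and between 4.94 and 5.51 in the other 7 clones, and it was called against MBD-TET1-CDmut (-1.81, adjusted p = 0.0440) only with #10 left out.

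**Figure D4:**
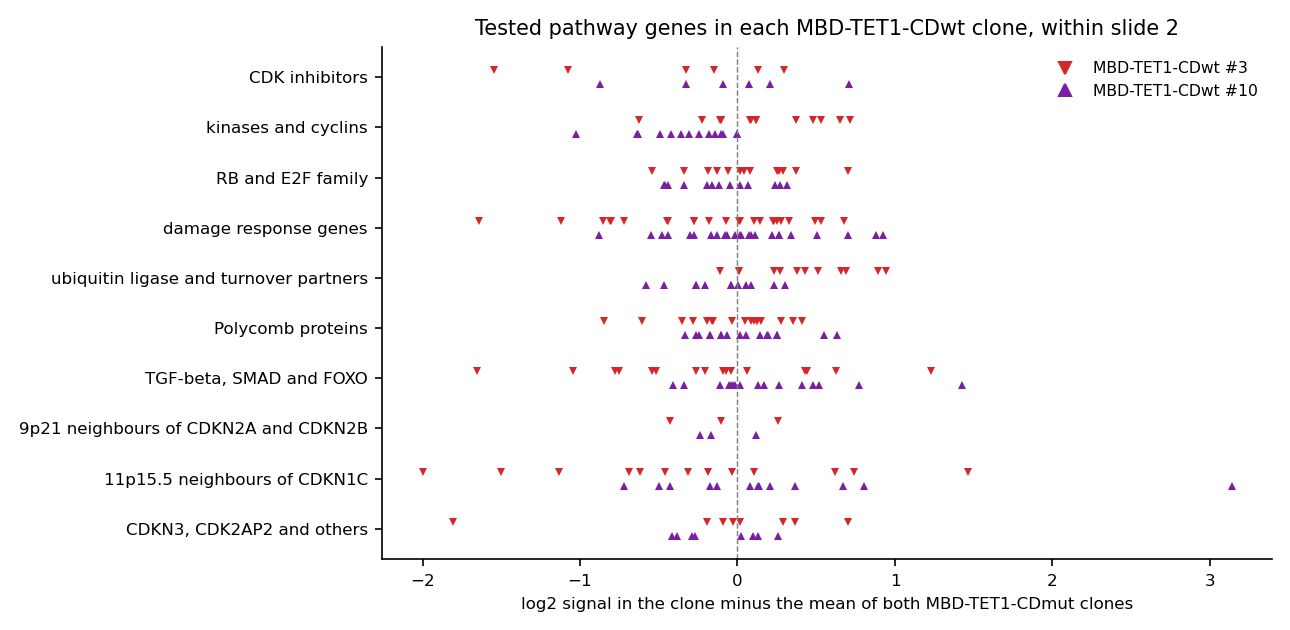
Tested genes of the CDK inhibitors and of the 9 partner lists (y axis), each as the log2 signal of MBD-TET1-CDwt #3 (triangles pointing down) or #10 (triangles pointing up) minus the mean of both MBD-TET1-CDmut clones (x axis), on slide 2. The 2 clones often lie on opposite sides of 0, as CDKN1C does, and H19 in #10 is farthest to the right.

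The genes whose pattern was most like an inhibitor's were searched for among 4127 genes that spanned 1 or more on the log2 scale. Over the 8 arrays, CDKN1A was closest to PIANP (r = 0.98), LINC01547 (r = 0.97), and PTPRH, a receptor-type tyrosine phosphatase (r = 0.94). PTPRH read -4.26 and -3.60 in MBD-TET1-CDwt and -2.33 and -2.83 in MBD-TET1-CDmut. CDKN1C was closest to QARS1, a glutaminyl-tRNA synthetase (r = 0.98), ALOX5, a lipoxygenase (r = 0.98), and LDOC1 (r = 0.98). ALOX5 read -5.22 in MBD-TET1-CDwt #3 and -2.08 in #10, and -1.93 and -4.22 in TET1-CDwt #2 and #5, so that its sister clones split in the same direction as those of CDKN1C. These are the highest of many correlations over 8 arrays and are given as a description.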

How the data were processed

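Cy3-labeled cRNA from 8 HEK293T clones was hybridized to Agilent 4x44K v2 arrays, 1 array per clone. The deposited values are processed intensities of Agilent Feature Extraction (9.5.1 in the submitters' processing notes and 10.7.3.1 in the file headers), which the authors left on a linear scale, with arrays not scaled to each other. A second deposited table of the series was identical.

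Control spots and 213 to 269 spots per array with an outlier flag were left out. From the deposited intensities, log2 values minus the 75th percentile of the array were computed, and the spots of a probe were averaged. The background flag of a probe was that of the majority (over 50%) of its spots. RefSeq (GRCh38.p14) named 25422 of 34127 probes (74.5%). The 8 arrays were fitted together in limma 3.58.1 (R 4.3.3), with a mean for each of the 4 groups and 4 residual degrees of freedom, after it had been tested on simulated data. In the simulated MBD-TET1-CDwt against empty vector, it recovered 10 of 50 probes changed by 1 on the log2 scale. Of 50 probes changed by 2, it recovered 43. It also recovered 49 of 50 changed by 3 and 50 of 50 changed by 4. Beside all of these, 22 unchanged probes were called falsely. In the data, the same comparison called only 26 probes. The adjustment is stricter when fewer probes are called, so the simulation can overstate recovery. Changes near 2-fold would thus mostly be missed. No slide term could be fitted, since each group lies on 1 slide. Python 3.11.15, numpy 2.4.6, pandas 2.3.3, and matplotlib 3.10.9 were used.

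The genes, lists, and tests were chosen with earlier results of these data known. Named were all probes of the 7 genes, list genes that were called or lay 2-fold apart in groups without overlap, and the 3 genes most like CDKN1A and CDKN1C. Other list genes (CCND1, MDM2, IGF2, H19, and others) were named after their values had been seen. Alternatives were normexp (offset 50), quantile and median scaling, other filters, fits, and weights, the second probes, and leaving out each clone. The files hold no mean signal, so normexp was run on median signals, with outlying local backgrounds set to the median of the array. Some genes are not reported. LNCaP cells, RT-PCR, and bisulfite sequencing were not analysed here.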

Additional observations from a re-analysis of the deposited data

How the results depend on the processing

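The count of inhibitor probes called by limma was 0 in all 80 alternative fits over the 5 comparisons. Over all 6 tested genes, the 5 comparisons, and the alternatives, 43 of 475 differences changed sign, and 33 of these were of CDKN1B, CDKN2A, CDKN2C, or CDKN2D, whose reported sizes were then 0.18 or less. Many of the 475 could not change. Other filters, fits, and weights left the differences as they were, as did leaving out a clone of a group outside the comparison. The share among differences that could move was therefore higher. With normexp, the difference of CDKN1A turned to 0.13 for MBD-TET1-CDwt against empty vector, -0.15 for TET1-CDwt against empty vector, and 0.28 for MBD-TET1-CDwt against TET1-CDwt, and the within-slide difference of MBD-TET1-CDwt from MBD-TET1-CDmut shrank to -0.02. The cause was not tested. Leaving out 1 clone at a time moved CDKN1A from -0.20 to 0.74 for TET1-CDwt against empty vector, from -0.20 to 0.78 for MBD-TET1-CDmut against empty vector, and from -1.70 to -0.72 for MBD-TET1-CDwt against MBD-TET1-CDmut. It moved CDKN1C from -1.17 to 0.61 for MBD-TET1-CDwt against empty vector and from -1.08 to 0.71 against MBD-TET1-CDmut, with MBD-TET1-CDwt #3 left out at the upper end. CDKN2A moved from -0.15 to 0.07 for MBD-TET1-CDwt against MBD-TET1-CDmut, with the upper value (0.0702) without MBD-TET1-CDwt #3, and was 0.0425 without MBD-TET1-CDmut #10. With a clone left out, the remaining array of its group was assumed to vary like the other groups. No paired analysis was possible because each clone was picked as a separate colony, and an equal clone number does not link clones of different constructs. CDKN1A and CDKN2B are limited by signal over background.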
